A study of Mus musculus with 14 samples.

Results

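Minar2, Adgrv1, Xkr6 and Efcab1 are 4 genes that read higher in epidermal cells lacking the histone methyltransferase G9a than in wild-type cells. They were picked by name from 17097 genes with a symbol on the array, because their signals had already been seen to be higher without G9a. Every probe set bearing 1 of the 4 names was kept, which gave 9 of the 45141 probe sets in the table: 2 for Minar2, 2 for Adgrv1, 2 for Xkr6 and 3 for Efcab1. A probe set is the group of probes that reports 1 transcript, or several transcripts of a gene, as a single signal.

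The study measured RNA of mouse epidermis in homeostasis on Affymetrix arrays, all from mice aged 15 weeks. The bulge is the part of the hair follicle that houses its stem cells, and the interfollicular epidermis (IFE) is the skin surface between follicles. Wild-type mice (G9a WT) gave 3 bulge and 3 IFE arrays, and mice with a conditional knockout of G9a (G9a cKO) gave 4 bulge and 4 IFE arrays. The labels name no other allele and no treatment, and neither the promoter that drives the deletion nor the method of separating the cells could be found there. Nor do the labels say that replicates came from separate animals, so each p-value measures only the spread between samples, which may be technical.

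G9a, encoded by Ehmt2, places methyl groups on lysine 9 of histone H3 together with its partner GLP, and this mark is known for keeping genes silent in euchromatin. Minar2 is a membrane protein of the inner ear and brain that is associated with NOTCH2, and Adgrv1 is a very large adhesion G protein-coupled receptor that forms links between the stereocilia of hair cells and is mutated in Usher syndrome. Xkr6 belongs to the XK-related membrane proteins, some of which scramble phospholipids in dying cells, and Efcab1, also called calaxin, is a calcium-binding protein of the outer dynein arms of motile cilia.

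Of the promoter windows given by RefSeq, 1 belonged to these genes, that of Adgrv1. Of its 300 bases, 297 lie inside the annotated extent of Adgrv1 and 3 beyond its 5′ end, so the window surrounds a start within the gene model and not its outermost one. It is shown as the only window given for these genes, and because CG dinucleotides mark a class of promoter. This window says nothing about the promoters of the other genes. The capitals mark each CG.
Adgrv1, GRCm38.p6 chr13:81633095-81633394, minus strand: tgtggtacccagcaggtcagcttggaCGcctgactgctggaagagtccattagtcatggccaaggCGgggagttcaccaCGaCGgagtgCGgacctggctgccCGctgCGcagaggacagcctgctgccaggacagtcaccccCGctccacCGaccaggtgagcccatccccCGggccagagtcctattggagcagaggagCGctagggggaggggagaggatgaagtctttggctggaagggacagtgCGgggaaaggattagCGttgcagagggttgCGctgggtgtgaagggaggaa
This window of 300 bases held 14 CG dinucleotides, against a median of 7 over 32851 windows of the same length, and 63.3% of its bases were G or C, against a median of 52.7%. Its CG count lay at the percentile 63.7 of all windows. On both strands it held no match to the E-box CACGTG (present in 7.15% of all windows), the E2F motif GGCGGGAA (2.19%), the CRE motif TGACGTCA (1.79%), the left part of the REST motif TTCAGCACC (0.371%) or the TATA motif TATAAA (13.6%). The E-box and the CRE motif share the letters ACGT, and no motif contains another. An absent match says only that these letters are not in this window.

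The knockout was visible on 1 of the 2 probe sets of Ehmt2, which read 9.51 to 9.78 on the WT arrays and 5.85 to 6.09 on the cKO arrays, while the other read 7.84 to 8.05 on all 14. Signals are log2 values, so that a difference of 1 is a doubling of signal, and the array medians lay between 5.76 and 5.84. Ehmt1, which encodes GLP, had mean signals of 9.12 in bulge WT and 8.93 in bulge cKO, and of 8.97 in IFE WT and 8.88 in IFE cKO. The cKO arrays were not uniform: bulge cKO replicates 2 and 3 read low for 13 bulge stem cell markers (mean signals 9.89 and 10.04, against 10.72 to 10.86 in bulge WT), and IFE cKO replicates 2 and 3 read high for them (8.30 and 8.36, against 7.90 to 7.96 in IFE WT). In the WT, 12 of these 13 markers were higher in bulge than in IFE cells and 1, the integrin Itga6, was lower (limma, adjusted p under 0.05), where 35.3% of all genes were called, 18.5% higher and 16.8% lower. The differences of the 4 genes are therefore also given without these cKO arrays.

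All 4 genes read higher in cKO than in WT cells in both compartments on their brightest probe set, the one with the highest mean over all arrays. Minar2 had the widest difference in each compartment, and Adgrv1, Xkr6 and Efcab1 followed with log2 differences of 1.26 to 1.61 in bulge and of 2.06 to 2.41 in IFE. Since the genes were chosen for these differences, the values are a description and carry no test. Arrays of this kind have no detection call here, so whether the low signals lie above background is not known, and the differences are given on the log2 scale of the signal and not as folds of transcript. In bulk cells, more cells with a transcript and more transcript per cell cannot be told apart.

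Minar2 read 5.61, 5.31 and 5.59 on the bulge WT arrays and 8.95, 8.71, 8.54 and 9.35 on the bulge cKO arrays. In IFE it read 3.53, 3.35 and 3.45 in WT and 7.31, 8.26, 8.22 and 7.39 in cKO. The WT and cKO arrays were far apart in both compartments, by 2.93 between the nearest arrays in bulge and 3.77 in IFE. The bulge means were 5.50 ± 0.17 (SD, n = 3) without the knockout and 8.89 ± 0.35 (SD, n = 4) with it, which differ by 3.38 (SE 0.25). IFE means were 3.45 ± 0.09 (SD, n = 3) and 7.79 ± 0.52 (SD, n = 4), which differ by 4.35 (SE 0.25). Both ranked 1, from the highest difference down, among 45037 probe sets, after control probe sets were left out. The IFE WT signals lay below the lower quartile of every array (4.65 to 4.74), and the size of a difference from so low a level depends on the background of the arrays. Among the IFE cKO arrays, replicates 2 and 3 were the higher ones, and without replicates 2 and 3 of both compartments the log2 difference was 3.65 in bulge and 3.90 in IFE.

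The brightest Minar2 probe set, 1437528_PM_x_at, has a suffix by which Affymetrix marks sets whose probes can also match other transcripts. The second set, 1433577_PM_at, has no such mark and was also higher in cKO cells. It read 4.98 to 5.11 in bulge WT, 6.29 to 7.04 in bulge cKO, 4.68 to 4.79 in IFE WT and 5.57 to 5.94 in IFE cKO. Its log2 differences were 1.57 in bulge and 1.04 in IFE (SE 0.16 each), with the groups apart in both. The signals of the 2 sets had a Pearson correlation of 0.95 over the 14 arrays, given as a description since both follow the same 4 groups.

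Adgrv1 on 1425314_PM_at read 6.74, 6.36 and 6.47 in bulge WT and 7.09, 8.36, 7.96 and 7.72 in bulge cKO. In IFE WT it read 6.53, 6.27 and 6.50, and the 4 IFE cKO arrays read 8.85, 8.82, 8.87 and 8.85. The IFE cKO arrays were nearly identical, while the bulge cKO arrays spread over more than 1 log2 unit, with replicate 1 only 0.35 above the highest WT array. The means were 6.52 ± 0.20 (SD, n = 3) and 7.78 ± 0.53 (SD, n = 4) in bulge, which differ by 1.26 (SE 0.22). In IFE they were 6.43 ± 0.14 (SD, n = 3) and 8.85 ± 0.02 (SD, n = 4), which differ by 2.41 (SE 0.22). Without bulge cKO replicates 2 and 3 the bulge difference was 0.88, so 1.26 depends in part on those arrays.

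The second Adgrv1 probe set, 1421693_PM_a_at, did not follow the first and read 3.54 to 3.68 on all 14 arrays. Its log2 differences were -0.03 in bulge and -0.01 in IFE, and its correlation with the first set over the arrays was 0.01. Its signal lay below the lower quartile of every array, and the place of either set along the Adgrv1 transcripts was not known here. The reading for Adgrv1 therefore rests on 1 of its 2 probe sets.

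Xkr6 on 1453328_PM_at read 6.72, 6.93 and 7.07 in bulge WT and 8.53, 8.35, 8.49 and 8.67 in bulge cKO. In IFE it read 6.14, 6.28 and 6.0 in WT and 8.48, 8.09, 8.20 and 8.05 in cKO. The cKO arrays of both compartments came within 8.05 to 8.67, the tightest cKO range over both compartments of the 4 genes. The means were 6.91 ± 0.17 (SD, n = 3) and 8.51 ± 0.13 (SD, n = 4) in bulge, which differ by 1.61 (SE 0.12). In IFE they were 6.14 ± 0.14 (SD, n = 3) and 8.20 ± 0.19 (SD, n = 4), which differ by 2.06 (SE 0.12). Its second set, 1425928_PM_at, stayed between 4.37 and 4.85 on all arrays and differed by 0.21 in bulge and 0.10 in IFE (SE 0.04 each), in the same direction but far less.

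Efcab1 on 1454198_PM_a_at read 6.87, 6.32 and 6.27 in bulge WT and 7.92, 7.34, 7.57 and 8.41 in bulge cKO. In IFE it read 5.11, 5.51 and 4.91 in WT and 7.18, 7.32, 7.39 and 7.65 in cKO. WT and cKO arrays did not overlap in either compartment, and the nearest arrays were 0.47 apart in bulge and 1.66 in IFE. The means were 6.49 ± 0.33 (SD, n = 3) and 7.81 ± 0.47 (SD, n = 4) in bulge, which differ by 1.32 (SE 0.24). In IFE they were 5.18 ± 0.31 (SD, n = 3) and 7.38 ± 0.20 (SD, n = 4), which differ by 2.21 (SE 0.24). Bulge cKO replicates 2 and 3 were the lowest cKO arrays here, and without them the bulge difference was 1.68.

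Efcab1 had a further pair of probe sets. The set 1455074_PM_at followed the first closely, with a correlation of 0.99 over the arrays and log2 differences of 1.44 in bulge and 2.22 in IFE (SE 0.29 each). The set 1453619_PM_at moved little, from 6.25 at its lowest to 6.80 at its highest, and differed by 0.39 in bulge and 0.15 in IFE (SE 0.05 each). Over all 4 genes, 8 of the 9 probe sets were higher in cKO with no overlap between the groups in both compartments, the exception being 1421693_PM_a_at of Adgrv1. Of all probe sets, 9.37% were higher without overlap in bulge and 4.97% in IFE, each compartment taken alone. The share in both at once is not given. Nothing is read from the count of 8 of the 9, because the genes were chosen on it.

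**Figure D1:**
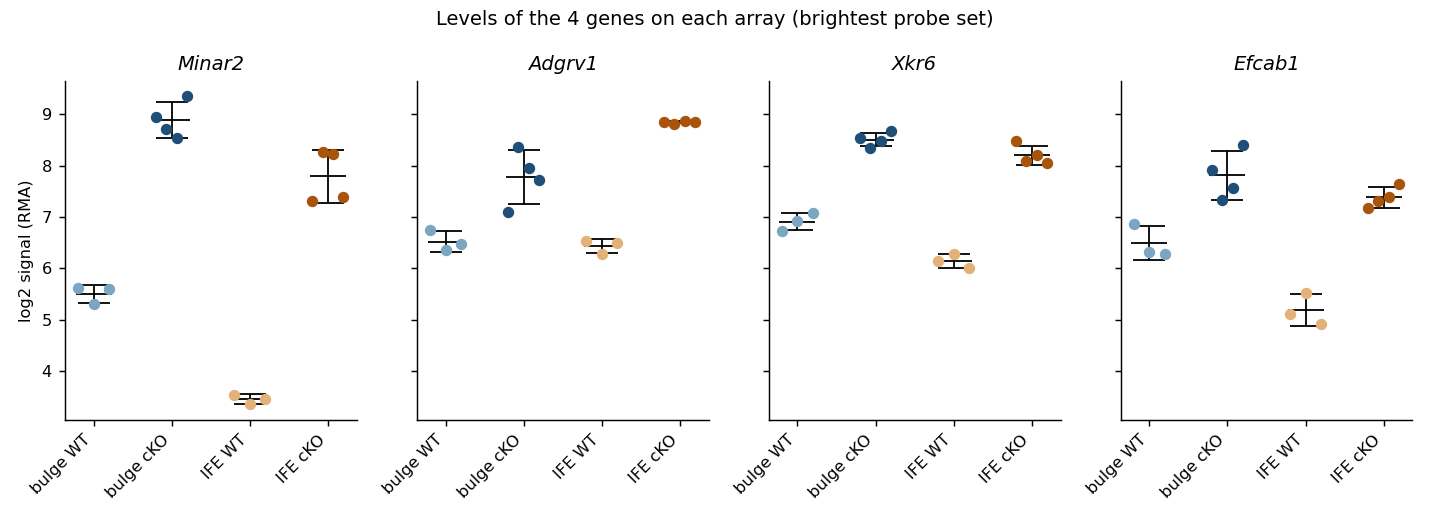
Log2 signal of the brightest probe set of Minar2, Adgrv1, Xkr6 and Efcab1, 1 point per array, with the mean and SD of each group as bars. In each panel the cKO arrays lie above the WT arrays of the same compartment, with the narrowest gap, 0.35, for Adgrv1 in bulge and the widest, 3.77, for Minar2 in IFE.

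**Figure D2:**
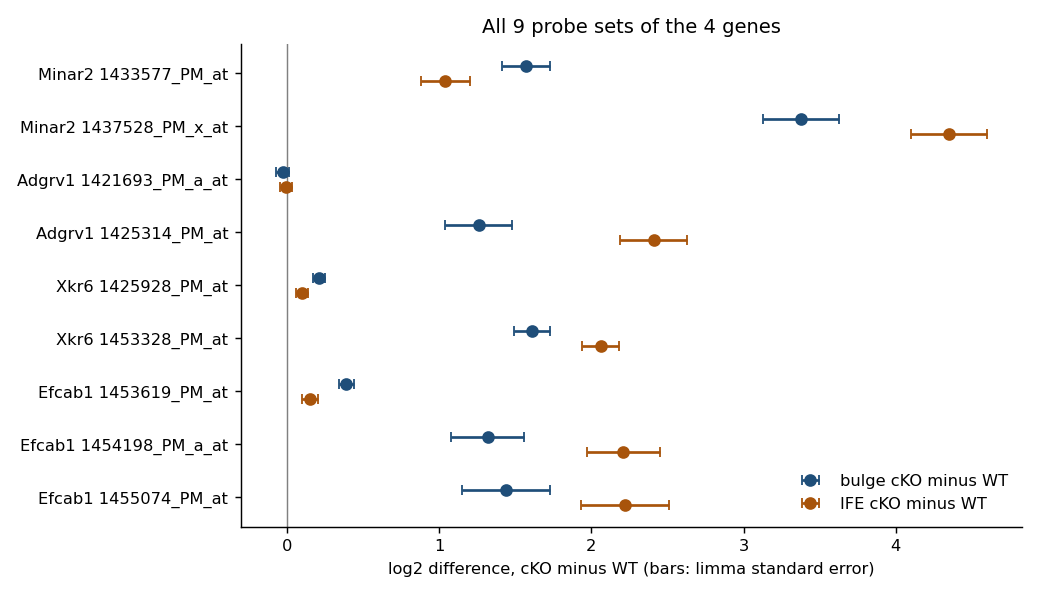
Log2 difference, cKO minus WT, of the 9 probe sets of the 4 genes in bulge and IFE, with the standard error of limma as bars. The probe sets of a gene differ in size: those of Adgrv1 lie at 2.41 and -0.01 in IFE, and those of Xkr6 at 2.06 and 0.10.

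A higher signal in cKO by at least 1 log2 unit in both compartments was seen for 55 probe sets of 45037, which is 0.122%, and 6 of these belonged to the 4 genes. That size was passed by 278 probe sets (0.617%) in bulge and by 87 (0.193%) in IFE, whatever the other compartment. Slc38a4, an amino acid transporter, came nearest to Minar2 in IFE, and its brightest probe set differed by 2.12 in bulge and 4.18 in IFE. Gpa33, a surface antigen of intestinal epithelium, differed by 3.25 and 2.87. These genes share the arrays with the 4 genes and were found by size, so they too are a description.

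**Figure D3:**
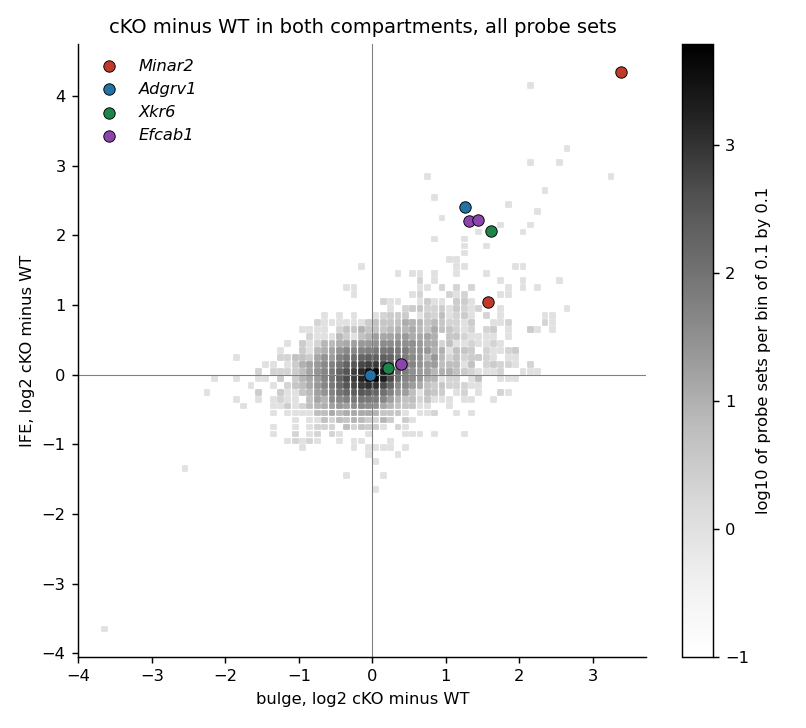
Log2 difference, cKO minus WT, in bulge (horizontal) and IFE (vertical) for all probe sets, with grey bins shaded by the log10 of their number and coloured points for the 9 probe sets of the 4 genes. The brightest Minar2 set lies at the upper right end, at 3.38 and 4.35, and 3 of the coloured points lie near 0 in both.

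The comparison of bulge with IFE cells was not used to choose the genes, although it shares their arrays, and could be tested. In the WT, Minar2, Xkr6 and Efcab1 were higher in bulge than in IFE cells on their brightest probe sets, while no difference was detected for Adgrv1. Of the 9 probe sets, 5 were higher in bulge, 0 were lower and 4 did not pass (limma, adjusted p under 0.05 over all probe sets), where 18.6% of all probe sets were higher, 16.4% lower and 35.0% either. Minar2 differed by 2.06 (SE 0.26, limma adjusted p = 0.000123), with every bulge WT array above every IFE WT array. Efcab1 differed by 1.31 (SE 0.26, limma adjusted p = 0.00195) on its brightest set and by 1.27 (SE 0.31, limma adjusted p = 0.00675) on 1455074_PM_at. Xkr6 differed by 0.77 (SE 0.12, limma adjusted p = 0.000556). The second Xkr6 set differed by 0.15 (limma adjusted p = 0.0283), a call that was lost without any 1 of replicates 2 and 3 of the WT, in either compartment (adjusted p from 0.0571 to 0.101). It was also lost under cyclic loess (0.0597), median centring (0.118), only the groups compared (0.0652) and a replicate block (0.0553). For Adgrv1 the difference was 0.09 (limma adjusted p = 0.81), with a 95% confidence interval from -0.42 to 0.60. The second Minar2 set differed by 0.30 (limma adjusted p = 0.195), with an interval from -0.07 to 0.67, although its WT arrays did not overlap.

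Without G9a, Minar2 was again higher in bulge cells, and Adgrv1 was lower in bulge than in IFE cells. Of the 9 probe sets, 5 were higher in bulge cKO, 1 was lower and 3 did not pass (limma), where 17.2% of all probe sets were higher, 15.1% lower and 32.3% either. Adgrv1 differed by -1.07 (SE 0.20, limma adjusted p = 0.00232), with every bulge cKO array below every IFE cKO array, and by -1.45 (limma adjusted p = 0.00184) without cKO replicates 2 and 3 of both compartments. Minar2 differed by 1.09 (SE 0.23, limma adjusted p = 0.004) on its brightest set and by 0.83 (limma adjusted p = 0.00162) on the other; without cKO replicates 2 and 3 of both compartments these were 1.80 (limma adjusted p = 0.000158) and 1.27 (limma adjusted p = 0.000173). For Efcab1 the brightest set differed by 0.42 (limma adjusted p = 0.166), with an interval from -0.06 to 0.91 and overlapping arrays, by 0.78 (limma adjusted p = 0.0278) without bulge cKO replicates 2 and 3, and by 0.75 (limma adjusted p = 0.0987) without those of both compartments. The set 1455074_PM_at of Efcab1 differed by 0.49 (limma adjusted p = 0.178), with an interval from -0.09 to 1.07. The set 1453619_PM_at of Efcab1 differed by 0.30 (limma adjusted p = 0.00078) and the second Xkr6 set by 0.26 (limma adjusted p = 0.000785).

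Xkr6 differed by 0.31 between bulge and IFE cKO cells on its brightest set (SE 0.11, limma adjusted p = 0.0442), but the arrays of the compartments overlapped. The call was lost without bulge cKO replicate 1, 3 or 4, bulge WT replicate 2, IFE cKO replicate 2, 3 or 4, or IFE WT replicate 1, with adjusted p from 0.057 to 0.124. No other call between compartments for the 9 probe sets, apart from that of the second Xkr6 set in the WT, changed when a single array was left out.

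Ordered by level, Minar2 was highest in bulge cKO, then IFE cKO, bulge WT and IFE WT, and the arrays of neighbouring groups did not overlap. Adgrv1 was highest in IFE cKO, then bulge cKO, with both WT groups below and overlapping each other. Xkr6 and Efcab1 had the order of Minar2, but their bulge cKO and IFE cKO arrays overlapped. On the brightest probe sets, the gap between bulge and IFE was 2.06 in WT and 1.09 in cKO for Minar2. Without cKO replicates 2 and 3 of both compartments that cKO gap was 1.80. The gaps in WT and cKO were 0.77 and 0.31 for Xkr6, 1.31 and 0.42 for Efcab1, and 0.09 and -1.07 for Adgrv1. Whether the gap was narrower in cKO depended on the probe set. It was wider in cKO on the second Minar2 set, with 0.30 in WT and 0.83 in cKO. The same held for the second Xkr6 set, with 0.15 and 0.26, and for 1453619_PM_at of Efcab1, with 0.06 and 0.30. On 1455074_PM_at of Efcab1 it was narrower, with 1.27 and 0.49. That these gaps differ between genotypes follows from the differences the genes were chosen on, so it was given no test.

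Markers of other cells moved with the cKO arrays. Of 12 markers of differentiated keratinocytes, 3 rose in bulge cKO cells (limma), where 3.87% of all genes were called, 2.04% higher and 1.83% lower. They were Casp14, a protease of cornification, by 2.32, Sprr1a, a cornified envelope protein, by 1.53, and Ovol1, a transcription factor, by 1.18. The mean signal of the list was 7.42 to 7.91 on bulge WT arrays and 7.99, 9.62, 9.32 and 8.90 on bulge cKO arrays. The count was 0 without bulge cKO replicate 2 or 3, bulge WT replicate 1 or 2, IFE cKO replicate 2, 3 or 4, or IFE WT replicate 1, was 1 without bulge WT replicate 3 or IFE WT replicate 2, and was 8 without bulge cKO replicate 1. It was also 0 without bulge cKO replicates 2 and 3 together. With all arrays, 10 of the 12 were higher and 0 lower in bulge at an unadjusted p under 0.05, against 14.3% and 11.8% of all genes. The list's median log2 difference in bulge was 1.34, from 1.09 to 1.70 with single arrays left out, and 11 of the 12 were above 0. In IFE cells 0 of the 12 were called by limma, where 0.462% of all genes were, 0.298% higher and 0.164% lower, and 3 had an unadjusted p under 0.05; 1 was called without IFE cKO replicate 1. Their mean signal was 8.67 to 9.31 in IFE WT and 9.25 to 9.70 in IFE cKO. Of the 13 bulge stem cell markers, limma called 0 in bulge cKO against WT and 0 in IFE on their brightest probe sets. With every probe set counted, 2 markers had a call in bulge and 0 in IFE, a rule for which no share of all genes is given. At an unadjusted p under 0.05, 6 were lower in bulge, and 1 was higher and 2 lower in IFE. Over all genes at that p, 14.3% were higher and 11.8% lower in bulge, and 5.0% higher and 6.27% lower in IFE. Single arrays mattered here too: in bulge 1 was called without bulge cKO replicate 1 and 4 without bulge cKO replicate 4, and in IFE 1 without IFE cKO replicate 4.

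Krt1, a suprabasal keratin, read 9.36, 11.93, 11.75 and 11.31 on bulge cKO replicates 1 to 4, and Adgrv1 on the same arrays read 7.09, 8.36, 7.96 and 7.72. Both were lowest on replicate 1 and highest on replicate 2. Cd34, a surface protein of bulge stem cells, read 10.55, 9.84, 9.95 and 11.18 there. Minar2, Xkr6 and Efcab1, like Cd34, were highest on replicate 4 and lower on replicates 2 and 3 than on replicate 1. For Xkr6 the spread was small, with 8.53, 8.35, 8.49 and 8.67. On the IFE cKO arrays Cd34 read 5.10, 6.65, 6.53 and 5.16, and Minar2 was likewise higher on replicates 2 and 3. Efcab1 did not follow Cd34 there, with 7.18, 7.32, 7.39 and 7.65 and its highest value on replicate 4. Nor did Xkr6, with 8.48, 8.09, 8.20 and 8.05. With cKO replicates 2 and 3 left out of both compartments the differences were 0.88 and 2.41 for Adgrv1, 1.69 and 2.12 for Xkr6, and 1.68 and 2.24 for Efcab1, in bulge and IFE. Whether the mix of cells has a part in the spread among cKO arrays was not tested.

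**Figure D4:**
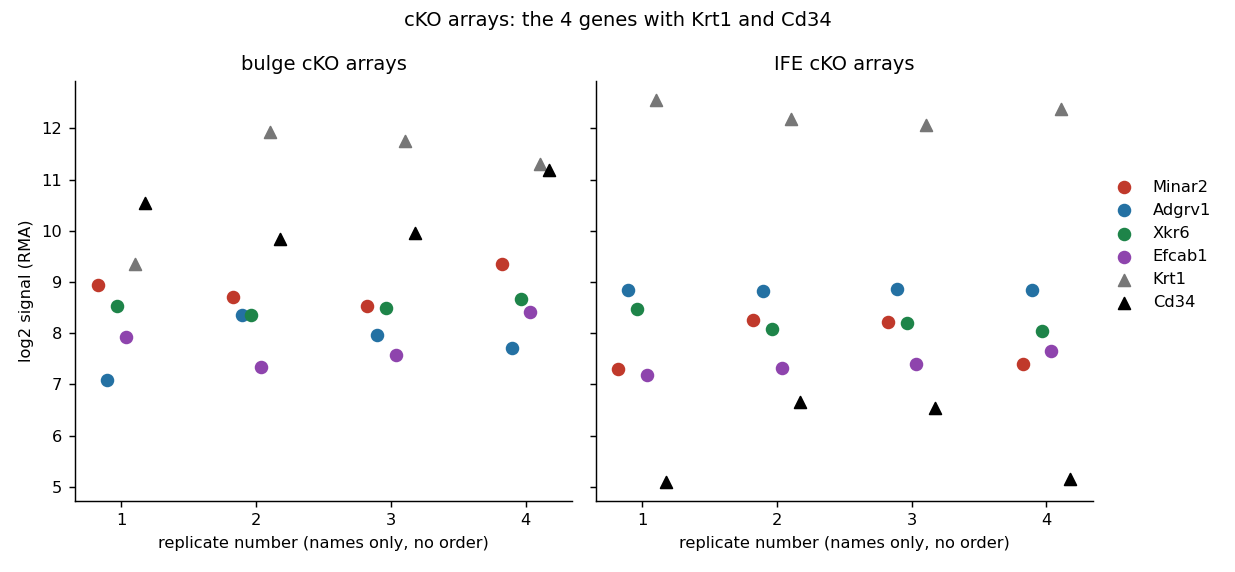
Log2 signal of the brightest probe set of the 4 genes and of Krt1 and Cd34 on each bulge cKO and IFE cKO array; replicate numbers are names without order. On bulge cKO arrays Adgrv1 and Krt1 are both lowest on replicate 1, and on IFE cKO arrays Minar2 and Cd34 are both higher on replicates 2 and 3 than on 1 and 4.

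Immune markers also differed. Of 11 markers of Langerhans and antigen presenting cells, 4 rose in bulge cKO (limma), where 2.04% of all genes were called higher. They were Cd74, the invariant chain, by 0.87, and 3 chains of MHC class II, H2-Aa by 0.76, H2-Eb1 by 0.97 and H2-Ab1 by 2.35. At an unadjusted p under 0.05, 7 were higher and 1 lower in bulge, against 14.3% and 11.8% of all genes. The lower marker was Mfge8, by 0.59 on the log2 scale (limma adjusted p = 0.0917). Itgax and Epcam differed by 0.04 and 0.09. The list's mean signal was 6.51 to 6.67 on bulge WT and 6.87 to 7.37 on bulge cKO arrays, and the count was 2 without bulge cKO replicate 2, 1 without replicate 3 and 0 without bulge WT replicate 1 or 2, or without bulge cKO replicates 2 and 3 together. In IFE limma called 0 of 11, and the mean signals were 6.54 to 6.95 in WT and 6.81 to 7.15 in cKO. At an unadjusted p under 0.05, 2 were higher in IFE, against 5.0% of all genes. Cd207, which defines Langerhans cells, had mean signals of 5.11 in bulge WT, 5.67 in bulge cKO, 5.75 in IFE WT and 5.71 in IFE cKO. Of 9 T cell markers limma called 0 in either compartment on their brightest probe sets. With every probe set counted, 1 marker had a call in bulge and 0 in IFE. At an unadjusted p under 0.05, 7 were higher in bulge and 3 in IFE, against 14.3% and 5.0% of all genes. In bulge 3 were called without bulge cKO replicate 1 and 2 without bulge cKO replicate 4. Cd3g, a subunit of the T cell receptor complex, read 5.13 to 5.62 in bulge WT and 5.79 to 7.29 in bulge cKO. The mean signal of the 9 was 5.48 to 5.68 in bulge WT, 5.64 to 6.38 in bulge cKO, 5.90 to 6.08 in IFE WT and 6.16 to 6.47 in IFE cKO. The part of these cells in the levels of the 4 genes was not tested.

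Markers of other cells that the samples could hold gave few calls. In bulge cKO against WT, limma called 0 of 9 melanocyte, 0 of 8 fibroblast and 0 of 8 skeletal muscle markers. At an unadjusted p under 0.05, 2, 2 and 1 were higher and 1, 0 and 0 lower. Of all genes limma called 3.87%, and 14.3% were higher and 11.8% lower at an unadjusted p under 0.05. In each of these lists 1 was called without bulge cKO replicate 4. The fibroblast list had a mean signal of 4.93 to 5.17 on bulge WT arrays and of 5.10, 5.80, 5.51 and 5.20 on bulge cKO replicates 1 to 4. In IFE it was 4.81 to 5.11 in WT and 5.07, 5.49, 5.46 and 5.04 in cKO, so replicates 2 and 3 lay above every WT array in both compartments. The collagen gene Col3a1 had the widest difference of this list, 1.16 in bulge (limma adjusted p = 0.196) and 0.96 in IFE (limma adjusted p = 0.564). Vim, which encodes vimentin, differed by 0.51 and 0.35 and the matrix proteoglycan gene Dcn by 0.41 and 0.12. Mitf, a transcription factor of melanocytes, differed by -0.80 in bulge (limma adjusted p = 0.0657) and 0.05 in IFE. The other 8 of the 9 melanocyte markers were above 0 in bulge, where the list's median was 0.06. The part of these cells in the levels of the 4 genes was not tested either. Of 9 Merkel cell markers Krt20 was called, with a difference of 0.26, a call lost without any single array other than bulge cKO replicate 4, without which 2 were called. Of 8 endothelial markers Emcn was called, with a difference of 0.28, lost without bulge cKO replicate 1, 2 or 3, bulge WT replicate 1 or 2, IFE cKO replicate 1, 2 or 3, or IFE WT replicate 1. Of 7 markers of Schwann cells and glia Egfl8 fell by 0.27 on the log2 scale, a call lost without cKO replicates 2 and 3 of both compartments. In IFE limma called 0 in each of these 6 lists, against 0.462% of all genes. At an unadjusted p under 0.05, 1 was higher and 4 lower in all, against 5.0% and 6.27% of all genes.

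Measured genes from the pathways and families of the 4 were called in cKO against WT in 4 cases in bulge and in none in IFE, counts to be read against the 3.87% and 0.462% of all genes called by limma. At an unadjusted p under 0.05, 14.3% of all genes were higher and 11.8% lower in bulge (26.1% either), and 5.0% were higher and 6.27% lower in IFE (11.3% either). Minar2 was set against 12 measured genes of its relative Minar1, the Notch receptors, their ligands and targets. Of these, 1 fell in bulge cKO, the ligand Jag1 by 0.63 on the log2 scale (limma adjusted p = 0.00128), and none rose. The Jag1 call was lost without cKO replicates 2 and 3 of both compartments, 2 genes were called without bulge cKO replicate 4, and in IFE 1 was called without IFE cKO replicate 1. With all arrays limma called 0 in IFE, with 1 higher and 2 lower at an unadjusted p under 0.05. The median log2 difference was 0.06 in bulge and 0.00 in IFE, where that of all genes was 0.01 and -0.01. Minar1 differed by 0.09 in bulge and 0.00 in IFE, and Notch2 by 0.01 in each.

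For Adgrv1, 16 of 24 genes of the stereocilia and of Usher syndrome were measured, and their medians were 0.06 in bulge and 0.00 in IFE. Myo7a, the motor protein of the stereocilia, was the 1 called gene in bulge, with a log2 difference of 0.30 (limma adjusted p = 0.0285). That count was 0 without bulge WT replicate 1, 2 or 3 and 3 without bulge cKO replicate 4. In IFE limma called 0 of 16, with 1 at an unadjusted p under 0.05. Whrn, which encodes a scaffold protein at the links made by Adgrv1, differed by -0.01 in bulge and 0.04 in IFE. Of 20 measured adhesion G protein-coupled receptors, the family of Adgrv1, 1 rose in bulge, Adgra1 by 0.31 (limma adjusted p = 0.0477), and 1 fell, Adgrl3 by 1.20 on the log2 scale (limma adjusted p = 0.00308). Leaving out any 1 of 12 arrays, all but bulge cKO replicates 1 and 4, left 1 call in place of 2, and without bulge cKO replicates 2 and 3 together none was left. In IFE limma called 0 of 20, with 1 higher and 2 lower at an unadjusted p under 0.05.

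For Xkr6, limma called 0 of 10 measured genes of the Xkr family and of lipid scrambling in either compartment. At an unadjusted p under 0.05, 1 was higher and 1 lower in bulge, and 2 were higher and 1 lower in IFE. Xkr8, the scramblase of dying cells, differed by -0.04 in bulge and 0.13 in IFE, Xkr4 by 0.05 and -0.03, and Xkrx by 0.29 (limma adjusted p = 0.141) and 0.30 (limma adjusted p = 0.351). The medians of the list were -0.04 and -0.02.

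For Efcab1, limma called 0 of 30 measured genes of motile cilia in bulge and 0 in IFE, with 2 higher and 2 lower in bulge and 1 higher and 2 lower in IFE at an unadjusted p under 0.05. In bulge the count was 1 without bulge cKO replicate 1 and 2 without bulge cKO replicate 4. Foxj1, the transcription factor that drives formation of motile cilia, differed by 0.09 in bulge and -0.11 in IFE, and the dynein heavy chain Dnah5 by 0.11 and -0.10. The medians of the list were 0.08 and 0.01.

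Neuron genes and genes of remote tissues, such as liver, retina and testis, were also examined, since the 4 genes are known mainly from tissues other than skin. Limma called 0 of 14 neuron genes in either compartment, with medians of 0.13 and 0.02. At an unadjusted p under 0.05, 6 were higher in bulge and 1 lower in IFE, against 14.3% and 6.27% of all genes. In bulge the neuron count was 2 without bulge cKO replicate 4. Of 24 genes of remote tissues 1 rose in bulge, Zpbp of the sperm acrosome, by 0.28 (limma adjusted p = 0.00288), and limma called 0 in IFE, with 2 at an unadjusted p under 0.05. Without bulge cKO replicate 1 the bulge count was 2. The medians were 0.07 and 0.01. In the WT the 4 genes stood at different heights on their brightest probe sets: Adgrv1 and Xkr6 read above the array medians on all 6 arrays and Efcab1 on the 3 bulge arrays. Minar2 read below the medians on all 6. Its mean in bulge WT was above those of 18 of the 24 genes of remote tissues, and in IFE WT it was above 0 of them.

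The 4 genes lie on 4 different chromosomes in the RefSeq annotation. In that annotation no other gene model overlaps Minar2, 1 overlaps Adgrv1, 5 overlap Xkr6, among them the microRNA gene Mir598, and 2 overlap Efcab1, so signal from an overlapping transcript cannot be told apart from theirs. The 3 nearest measured genes on each side of each gene, 24 in all, were fitted for the cKO effect. Their distances ran from 14.6 kilobases (kb) for Pinx1, by Xkr6, to 2896.2 kb for Nr2f1, by Adgrv1. Nearest measured gene thus does not mean adjacent. Limma called 0 of 24 in bulge and 0 of 24 in IFE, with 5 at an unadjusted p under 0.05 in each, of which 3 were higher. Over all genes limma called 3.87% and 0.462%, and 26.1% and 11.3% had an unadjusted p under 0.05. Their log2 differences had a median of 0.00 in both compartments and ran from -0.88 to 0.56 in bulge and from -0.98 to 0.40 in IFE.

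The closest measured neighbours were among those not called. Lysmd3, 24.3 kb from Adgrv1, differed by -0.06 in bulge and -0.34 in IFE (limma adjusted p = 0.872 and 0.59). Pinx1, 14.6 kb from Xkr6, differed by 0.07 and -0.22 (limma adjusted p = 0.594 and 0.322). Isoc1, 382.6 kb from Minar2, differed by -0.16 in bulge and 0.25 in IFE (limma adjusted p = 0.22 and 0.256). The neighbour with the widest difference was Snai2, 196.8 kb from Efcab1, which encodes the transcription factor Slug. It differed by -0.88 in bulge (limma adjusted p = 0.0517) and by -0.98 in IFE (limma adjusted p = 0.114), opposite in sign to Efcab1.

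**Figure D5:**
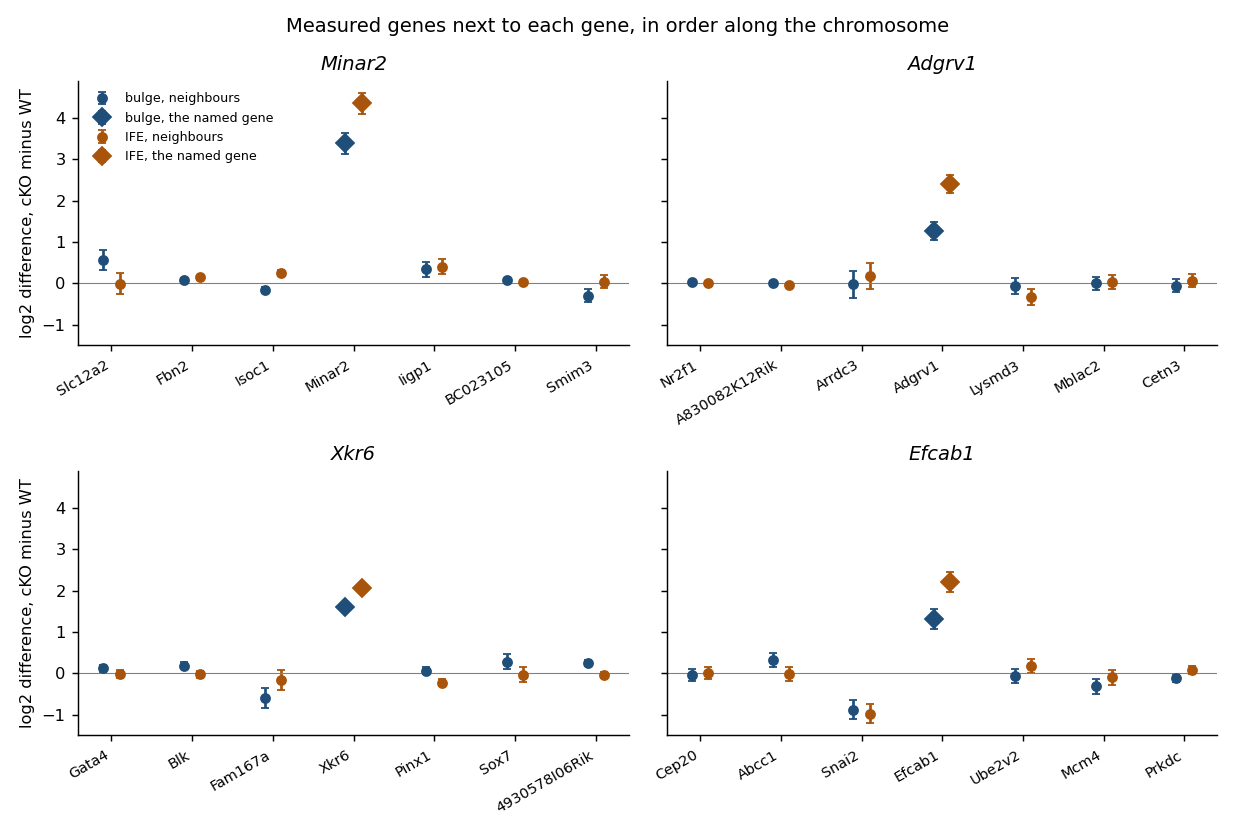
Log2 difference, cKO minus WT, of each of the 4 genes (diamonds) and the 3 nearest measured genes on each side (circles), in bulge and IFE, with the standard error of limma as bars; genes stand in chromosome order and not to distance. The neighbours lie between -0.98 and 0.56, below each of the 4 genes in both compartments.

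The pattern of the 4 genes over the 14 arrays was compared with that of 3409 genes whose signal ranged over at least 1 log2 unit. These correlations describe the arrays, which fall into 4 groups that all 4 genes follow, and carry no test. Among themselves, Minar2, Xkr6 and Efcab1 were most alike, with Pearson r of 0.97 between Minar2 and Xkr6, 0.96 between Minar2 and Efcab1 and 0.94 between Xkr6 and Efcab1. Adgrv1 was less like them, with r of 0.73 to Minar2, 0.78 to Xkr6 and 0.68 to Efcab1. It differs from them in lacking a detected difference between bulge and IFE in the WT. In cKO, too, Adgrv1 differed by -1.07 between bulge and IFE, where Minar2 differed by 1.09. Xkr6 differed by 0.31 there, a call lost without single arrays, and Efcab1 by 0.42, which was not called.

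Outside the 4 genes, those most like Minar2 were Slc38a4 (r = 0.972), Snurf (0.969) and Snrpn (0.957), of which Snurf and Snrpn are parts of 1 imprinted locus. Those most like Efcab1 were Snurf (0.973), Trim12a (0.965) and Slc38a4 (0.95), and those most like Xkr6 were Gpa33 (0.965), Slc38a4 (0.949) and Casp1 (0.933), a protease of the inflammasome. Slc38a4 thus stood near the top of the list for 3 of the 4 genes, with group means of 7.70 in bulge WT, 9.83 in bulge cKO, 5.35 in IFE WT and 9.53 in IFE cKO. Adgrv1 had its own set, led by the DNA repair gene Rad51b (0.962), Cryzl2 (0.961), Trim30d (0.948), the aldo-keto reductase Akr1c12 (0.945) and Lrp11 (0.943). In the number of other genes with r of at least 0.9, Adgrv1 had 13 and Minar2, Xkr6 and Efcab1 had 10 each.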

How the data were processed

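RNA was extracted with TRizol, amplified as cDNA and biotinylated, per the labels' protocols. The authors deposited log2 signals made with RMA, per the submitters' processing notes, which corrects background, equalises the distributions of arrays and combines the probes of a set. Its version was not found in the sources used here. The platform annotation gave 1 symbol to 28898 probe sets, several to 551 and none to 15692.

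After 104 control probe sets were left out, 45037 were fitted with limma 3.58.1 in R 4.3.3, with a mean per group over all 14 arrays, 10 residual degrees of freedom and no filter. Tests were two-sided, adjusted by Benjamini and Hochberg over all probe sets, with a threshold of 0.05. A gene in a list stands for its brightest probe set. Precision is limited by how many arrays there are. The fit was also run on simulated data, with independent noise for each probe set and array and known shifts added. Such data hold no deviation shared by the probe sets of an array, so that run does not bear on how single arrays move the counts here.

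The 4 genes and all lists were chosen with earlier results of these data known. The rule named all probe sets of the 4 genes, Ehmt2, Ehmt1, 6 markers, called genes of pathway lists (at most 4 a list), 3 neighbours a side and the 5 most similar genes. Other names, such as Minar1, Notch2, Whrn, Foxj1, Dnah5, Cd207, Mfge8, Itgax, Epcam, the Xkr genes, the called marker genes, Col3a1, Vim, Dcn, Mitf and the Slc38a4 and Gpa33 differences, were chosen after their values were seen. Alternatives were cyclic loess, median centring, a dim filter, 1 probe set per gene, an intensity trend, array weights, only the groups compared, a replicate block, other thresholds and leaving out arrays; the omission of cKO replicates 2 and 3 in bulge and IFE at once was added after seeing the data.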

Additional observations from a re-analysis of the deposited data

How the results depend on the processing

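The cKO minus WT differences of the brightest probe sets kept their direction under every alternative run. Without bulge cKO replicates 2 and 3, and also without those of both compartments, the bulge difference was 0.88 for Adgrv1 and 1.68 for Efcab1; without those of both, Minar2 in IFE was 3.90. With single arrays left out, the ranges in bulge and IFE were 3.23 to 3.50 and 4.20 to 4.51 for Minar2, 1.07 to 1.49 and 2.33 to 2.46 for Adgrv1, 1.51 to 1.68 and 1.97 to 2.13 for Xkr6, and 1.12 to 1.51 and 2.07 to 2.37 for Efcab1. Between bulge and IFE cKO, Efcab1 was 0.78 (limma adjusted p = 0.0278) without bulge cKO replicates 2 and 3 and 0.75 (0.0987, not called) without those of both compartments. The Xkr6 call there was lost with values of 0.26 under median centring (limma adjusted p = 0.09), 0.31 with an intensity trend (0.0516), 0.31 with only the groups compared (0.06), 0.40 without bulge cKO replicates 2 and 3 (0.0511) and 0.34 without those of both compartments (0.183), and ranged from 0.26 to 0.40 with single arrays left out.

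Over all probe sets, deviations of same-numbered arrays had correlations from -0.61 to 0.24. In 8 of 38 cases an array correlated best with its own number in another group. Both include pairs of a WT with a cKO array, which cannot share a mouse. Between bulge and IFE the correlations were 0.24, 0 and 0.14 in WT and -0.05, 0.11, -0.58 and 0.21 in cKO. In WT 2 of 3 bulge and 2 of 3 IFE arrays correlated best with their own number in the other compartment. In cKO 0 of 4 and 2 of 4 did. This does not settle whether the numbers pair the samples, and the main fit did not use them as pairs. Single markers and whole lists could still share an order. H2-Ab1 and the fibroblast, T cell, Langerhans and differentiated keratinocyte lists were highest on cKO replicates 2 and 3 in both compartments. On IFE cKO replicates 1 to 4 the differentiated keratinocyte list read 9.25, 9.70, 9.58 and 9.32. Not every member of that list followed its mean. Krt1 read 12.55, 12.19, 12.06 and 12.38 there and Krt10 read 11.95, 11.67, 11.53 and 11.79, both lowest on replicates 2 and 3. The T cell list read 6.16, 6.39, 6.47 and 6.17 there. The labels do not say whether same-numbered arrays share a source. With a replicate block the called probe sets were 1027 in bulge and 65 in IFE, and Xkr6 between cKO compartments was 0.31 (limma adjusted p = 0.0914).

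Counts of called probe sets, which give the background, moved most. In bulge cKO against WT 1651 became 656 with 1 probe set per gene, 19074 with array weights, 186 with only the groups compared, 228 without bulge cKO replicates 2 and 3, 185 without those of both compartments, 520 with a fold minimum of 1.5 and 4825 at an adjusted p under 0.1. With single arrays left out they ran from 329 (bulge WT replicate 1) to 5895 (bulge cKO replicate 4). In IFE 173 became 85, 2631, 100, 83 without cKO replicates 2 and 3 of both compartments, 101 and 316 under the same settings, and 83 to 210 with single arrays left out. Between WT compartments 15761 became 5998 with 1 probe set per gene and 6989 with the fold minimum, with a range of 12497 to 16220; between cKO compartments 14554 became 5496, 26411 with array weights and 4267, with a range of 10797 to 15337. Array weights gave bulge cKO replicate 3 a weight of 13.29. Median centring changed the split of higher and lower calls from 732 and 919 to 572 and 1137 in bulge, from 8364 and 7397 to 7193 and 9810 between WT compartments, and from 7739 and 6815 to 5320 and 9007 between cKO compartments.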
